A study of Homo sapiens with 6 samples.

Results

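AP-1 is a family of transcription factors that bind DNA as dimers of basic leucine zipper (bZIP) proteins, and 9 of its genes were followed here: FOS, FOSB, FOSL1 and FOSL2 of the FOS family, JUN, JUNB and JUND of the JUN family, and the related ATF3 and BATF3. They were taken by gene symbol as 9 of the 60664 genes in the count table, and all 9 had enough reads to be tested. RNA-seq was performed in U-2 OS cells, a polyploid human osteosarcoma line, transfected with control siRNA (siCTRL, 3 replicates) or with siRNA targeting SFPQ (siSFPQ, 3 replicates) at a final siRNA concentration of 30 nM. SFPQ encodes an RNA- and DNA-binding nuclear protein of paraspeckles, and the comparison asks how its depletion alters the transcriptome. All 6 libraries come from this single cell line, and knock-down lowers SFPQ without deleting it. The study describes the libraries of a group as biological replicates, and the p-values measure the spread between them in this line.

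FOS proteins dimerise only with partners such as the JUN proteins, whereas JUN proteins also pair with each other. The dimers recognise the TPA response element TGANTCA, and dimers with ATF or CREB proteins also bind the cAMP response element TGACGTCA. FOS, FOSB, JUNB and ATF3 are classical immediate early genes, switched on within minutes of growth factor or stress signals through MAP kinases, and FOSL1 and FOSL2 encode FOS proteins that lack the strong carboxy-terminal activation domain. In bone, FOS is known for causing osteosarcoma when overexpressed in mice, and FOSL2 and JUNB act in osteoblasts.

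SFPQ dropped from 491 ± 14.6 to 73.8 ± 7.79 CPM (counts per 1000000 of the library size after TMM scaling; mean ± SD, n = 3), with 22338, 23139 and 21753 reads in siCTRL and 3140, 3863 and 3151 in siSFPQ. Total counts ranged from 43469321 to 47119203 per library, at which 3 counts, taken as the detection floor for counting error, equal at most 0.0676 CPM. Of the bone and mesenchymal markers, COL1A1 (2910 CPM in siCTRL), SPARC (2222 CPM) and VIM (924 CPM) were abundant, whereas COL1A2 (0.832 CPM) and ALPL (3.52 CPM) were low. In siSFPQ, COL1A1 (log2 fold change -0.35, edgeR adjusted p = 3.2e-10) and SPARC (-0.17, adjusted p = 6.7e-05) fell. VIM rose (0.32, edgeR adjusted p = 7.1e-10). RUNX2 (57.6 CPM in siCTRL), COL1A2 and ALPL had edgeR adjusted p of 0.30, 0.23 and 0.71. The T cell marker CD3E and the liver marker ALB had at most 2 counts in any library. EPCAM, an epithelial marker, was at 5.09 CPM in siCTRL and 4.50 CPM in siSFPQ (edgeR adjusted p = 0.24). The epithelial CDH1 rose from 1.10 to 1.87 CPM (edgeR adjusted p = 0.0072). The leukocyte marker PTPRC fell from 0.693 to 0.226 CPM (edgeR adjusted p = 0.0015). PECAM1, also listed as a marker of another cell type, was at 0.773 CPM in siCTRL and 0.922 CPM in siSFPQ (edgeR adjusted p = 0.49). In bulk RNA, fewer cells expressing a gene and less RNA per cell cannot be told apart.

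The promoters of JUN and FOS carry known AP-1, ATF and CREB elements, through which these genes can be regulated by their own family, so the 250 bases before the RefSeq start of the JUN family genes, FOS and FOSB are shown here. They were read 5′ to 3′ on the gene's strand from the RefSeq promoter table on GRCh38.p14, which matched 7 of the 9 members; FOSL1 and BATF3 had no entry. Capitals mark matches to TGACATCA, TGACGTCA or TGACGT on either strand, and ACGTCA is TGACGT read on the opposite strand. The windows are chr1:58784048-58784297 (minus strand) for JUN, chr19:12791236-12791485 (plus) for JUNB, chr19:18281623-18281872 (minus) for JUND, chr14:75278578-75278827 (plus) for FOS and chr19:45467746-45467995 (plus) for FOSB.
JUN: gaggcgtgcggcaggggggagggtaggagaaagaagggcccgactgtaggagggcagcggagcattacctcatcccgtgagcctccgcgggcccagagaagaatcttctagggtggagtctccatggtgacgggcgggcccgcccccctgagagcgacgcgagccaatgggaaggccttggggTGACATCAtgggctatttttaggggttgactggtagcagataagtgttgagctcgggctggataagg
JUNB: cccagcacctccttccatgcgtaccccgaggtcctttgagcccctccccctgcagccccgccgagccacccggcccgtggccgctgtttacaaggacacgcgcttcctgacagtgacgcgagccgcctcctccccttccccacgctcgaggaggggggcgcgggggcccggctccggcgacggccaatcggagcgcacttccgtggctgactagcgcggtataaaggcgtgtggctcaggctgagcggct
JUND: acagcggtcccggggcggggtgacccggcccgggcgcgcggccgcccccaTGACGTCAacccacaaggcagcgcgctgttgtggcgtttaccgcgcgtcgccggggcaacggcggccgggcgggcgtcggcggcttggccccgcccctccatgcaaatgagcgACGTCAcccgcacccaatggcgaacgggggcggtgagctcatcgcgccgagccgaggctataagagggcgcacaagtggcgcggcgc
FOS: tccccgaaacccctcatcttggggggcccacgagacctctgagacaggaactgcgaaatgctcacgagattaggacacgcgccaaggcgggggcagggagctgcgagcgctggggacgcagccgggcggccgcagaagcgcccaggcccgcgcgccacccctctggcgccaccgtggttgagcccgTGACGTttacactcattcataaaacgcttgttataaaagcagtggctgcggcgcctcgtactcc
FOSB: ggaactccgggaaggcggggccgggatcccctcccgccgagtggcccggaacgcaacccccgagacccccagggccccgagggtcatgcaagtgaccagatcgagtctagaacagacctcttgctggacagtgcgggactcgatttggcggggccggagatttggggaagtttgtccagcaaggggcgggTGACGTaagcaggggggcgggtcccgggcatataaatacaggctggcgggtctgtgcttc

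The search covered both strands of the 250 bases before and 50 after each start. JUN held TGACATCA, the form of the element known from its promoter, with its first base at position -67 from the start, and ATF3 held the same letters at -123. TGACATCA occurred in 2.61% of all 35116 promoters of the table. JUND held the palindrome TGACGTCA at -200, which 1.85% of promoters hold and which itself contains TGACGT on each strand, and a separate ACGTCA at -87. FOS, FOSB and FOSL2 held TGACGT at -64, -60 and -66, a set of letters present in 7.98% of promoters. FOSL2 also held TGACTCA at 5 bases after its start, a match to TGANTCA, which 7.71% of promoters hold. None of these motifs was found in the JUNB window. No window of the 7 members searched held a CArG box, the site of serum response factor, which 1.29% of promoters hold. A CArG box farther from the start would not have been seen, and FOSL1 and BATF3 were not searched. These matches describe the letters of the windows and do not show that a factor binds there.

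Of the 9 members, 7 rose in siSFPQ, 1 fell and 1 did not pass the test (edgeR quasi-likelihood test, Benjamini-Hochberg adjusted p under 0.05 over 29022 genes). Over all genes tested, 22.4% rose and 22.1% fell. Among the 15641 genes with a mean of at least 1 CPM, which include all 9 members, 30.1% rose and 34.5% fell. No member passed a log2 fold change of 1.5 in either direction, the threshold used in the study, while 5.54% of all genes tested rose and 4.77% fell past it. Of genes with a mean of at least 1 CPM, 1.77% rose and 4.15% fell past it. The median log2 fold change of the members was 0.30, beside 0.02 over all genes tested, and the members ranged from -0.38 in FOSL2 to 0.81 in ATF3. In 7 members every siSFPQ library lay above every siCTRL library, as in 26.9% of all genes, and in 1 member every siSFPQ library lay below, as in 25.4%. The groups of the remaining member, JUND, overlapped.

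**Figure D1:**
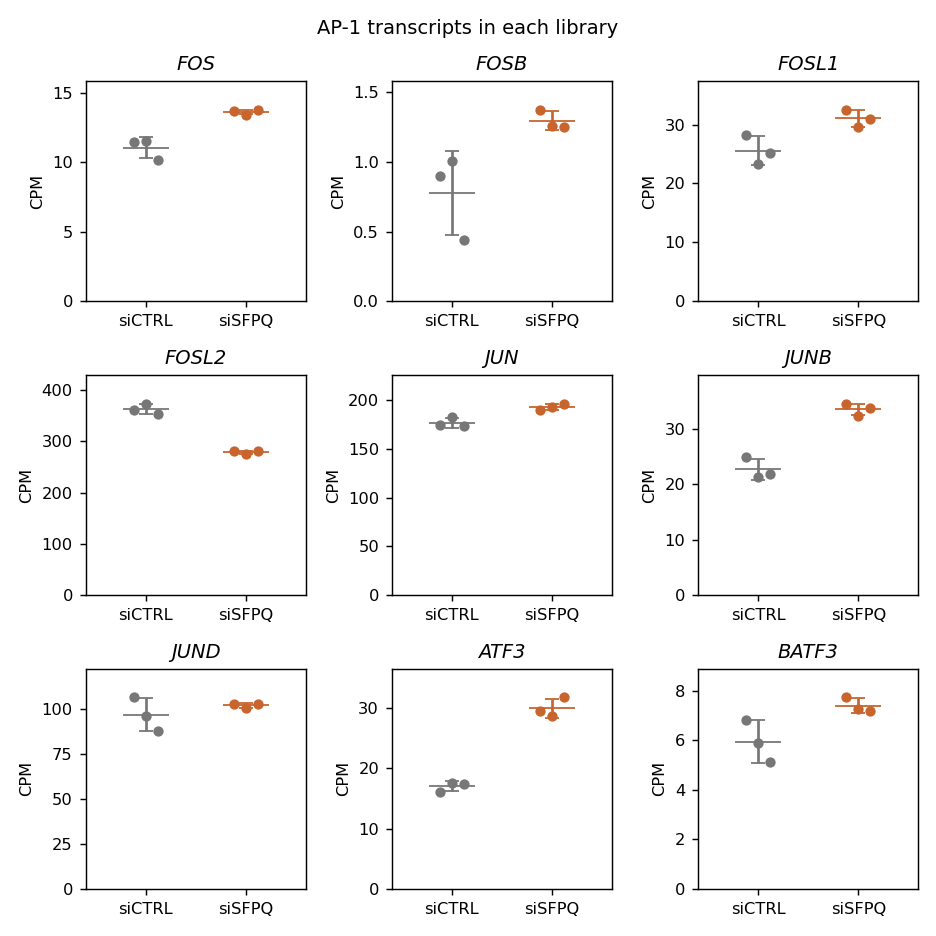
CPM (y axis, from 0, on a scale of its own for each gene) of the 9 AP-1 transcripts in siCTRL (grey) and siSFPQ (orange). Each point is a library in replicate order, the line is the mean and the bars are the SD (n = 3); ATF3 rises from 17.1 to 30.0 CPM, FOSL2 falls from 363 to 279 CPM and the groups overlap only in JUND.

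Within the FOS family, 3 genes rose and the most abundant, FOSL2, fell. FOS (ENSG00000170345, GRCh38 chromosome 14, 75278826 to 75282230, plus strand) encodes the founding member, whose mRNA is short-lived. It measured 11.4, 11.5 and 10.2 CPM in siCTRL and 13.7, 13.4 and 13.7 CPM in siSFPQ. All 3 siSFPQ libraries lay close together and above the controls, a rise from 11.1 ± 0.750 to 13.6 ± 0.169 CPM (SD, n = 3; log2 fold change 0.30, SE 0.079, edgeR adjusted p = 0.0022).

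FOSB (ENSG00000125740, chromosome 19, 45467995 to 45475179, plus strand), a paralogue of FOS with the same activation domains, was the scarcest member. Its counts were 41, 46 and 20 reads in siCTRL and 61, 59 and 58 reads in siSFPQ, or 0.781 ± 0.301 against 1.30 ± 0.0689 CPM (SD, n = 3). The groups did not overlap, but siCTRL replicate 3 held fewer than 0.5 CPM while the other controls were near 1 CPM. The log2 fold change was 0.73 with a 95% interval from 0.19 to 1.27 (edgeR adjusted p = 0.024). This call was lost with DESeq2 (adjusted p = 0.066), and without siCTRL replicate 3 the log2 fold change was 0.44 (edgeR adjusted p = 0.16). It was also lost without siSFPQ replicate 1, 2 or 3 (edgeR adjusted p = 0.086, 0.064 and 0.053).

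FOSL1 (ENSG00000175592, chromosome 11, 65892049 to 65900573, minus strand) encodes FRA-1, a FOS protein linked to invasive tumour cells. It measured 28.2, 23.4 and 25.2 CPM in siCTRL and 32.5, 29.6 and 31.0 CPM in siSFPQ. The lowest siSFPQ library was only slightly above the highest control. FOSL1 rose by 21.4% on average (log2 fold change 0.28, SE 0.063, edgeR adjusted p = 0.00037).

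FOSL2 (ENSG00000075426, chromosome 2, 28392448 to 28417317, plus strand) encodes FRA-2, which is active in osteoblasts and chondrocytes. It was the only member that fell, from 360, 373 and 354 CPM in siCTRL to 280, 275 and 281 CPM in siSFPQ. The gap between the groups was far wider than the spread within either, since the SD was 9.95 CPM in siCTRL and 2.99 CPM in siSFPQ. Its log2 fold change was -0.38 (95% interval -0.45 to -0.31, edgeR adjusted p = 7.7e-11), and FOSL2 was called lower in all 13 alternative settings, with values from -0.40 to -0.32.

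In the JUN family, JUNB rose most, JUN rose slightly and JUND did not pass the test. JUN (ENSG00000177606, chromosome 1, 58776845 to 58784048, minus strand), the main partner of the FOS proteins, measured 174, 183 and 174 CPM in siCTRL and 189, 193 and 196 CPM in siSFPQ. The groups were separate, but the rise was 9.15% (log2 fold change 0.13, SE 0.037, edgeR adjusted p = 0.0057), the smallest of the 7 that passed.

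JUNB (ENSG00000171223, chromosome 19, 12791486 to 12793315, plus strand), which can restrain the growth-promoting activity of JUN, measured 24.9, 21.2 and 21.9 CPM in siCTRL and 34.4, 32.3 and 33.7 CPM in siSFPQ. All siSFPQ libraries were clearly above the controls. The rise was 47.8% (log2 fold change 0.56, 95% interval 0.44 to 0.69, edgeR adjusted p = 1.6e-09).

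JUND (ENSG00000130522, chromosome 19, 18279694 to 18281622, minus strand) is the JUN gene expressed most steadily in resting cells. It measured 107, 96.5 and 88.1 CPM in siCTRL and 103, 101 and 103 CPM in siSFPQ. The siCTRL libraries spanned the whole siSFPQ range, and the log2 fold change of 0.07 had a 95% interval from -0.02 to 0.17 (edgeR adjusted p = 0.22). JUND passed the test with library size alone as scaling (log2 fold change 0.14, edgeR adjusted p = 0.022) and without siCTRL replicate 1 (0.15, edgeR adjusted p = 0.0092), while without siCTRL replicate 3 its log2 fold change was 0.01.

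ATF3 (ENSG00000162772, chromosome 1, 212565334 to 212620777, plus strand), a stress-induced factor that represses many promoters as a homodimer and binds others with JUN proteins, had the largest estimated rise of the members. It measured 16.1, 17.6 and 17.4 CPM in siCTRL and 29.5, 28.7 and 31.8 CPM in siSFPQ. No siSFPQ library came near the controls, and the mean was 75.8% higher (log2 fold change 0.81, SE 0.063, 95% interval 0.69 to 0.94, edgeR adjusted p = 7.4e-13). Over the 13 alternative settings its log2 fold change stayed between 0.77 and 0.88.

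BATF3 (ENSG00000123685, chromosome 1, 212686417 to 212699840, minus strand), best known for the development of a class of dendritic cells, encodes a small bZIP protein that pairs with JUN proteins. It measured 6.83, 5.88 and 5.13 CPM in siCTRL and 7.73, 7.27 and 7.18 CPM in siSFPQ. The groups were separate by a narrow margin, and the log2 fold change was 0.31 (95% interval 0.09 to 0.53, edgeR adjusted p = 0.017). Without siCTRL replicate 3 the value was 0.22 and the call was lost (edgeR adjusted p = 0.12), as it was without siSFPQ replicate 1 (0.29, edgeR adjusted p = 0.074).

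**Figure D2:**
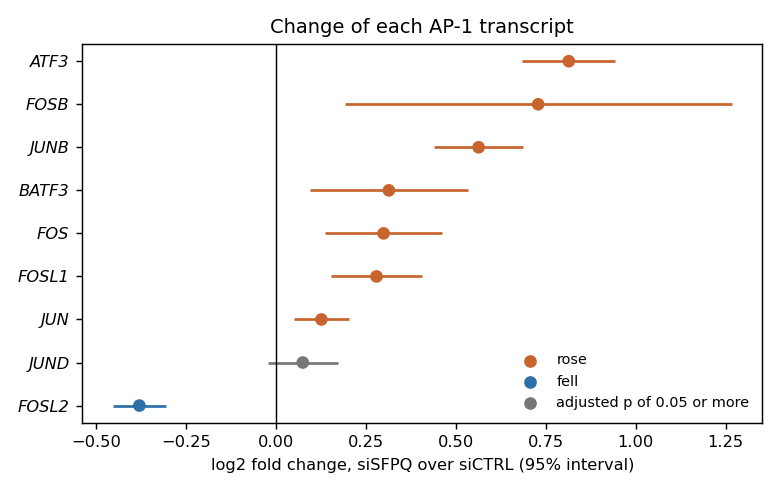
Log2 fold change of each AP-1 transcript, siSFPQ over siCTRL (x axis), with its 95% interval from edgeR, in order of size. Orange marks members that rose, blue those that fell and grey an adjusted p of 0.05 or more; the interval of FOSB, from 0.19 to 1.27, is the widest and that of JUND, from -0.02 to 0.17, includes 0.

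The order of the libraries within each group was counted over the members only. The replicate 3 library of siCTRL was the lowest of its group in 6 of 9 members and the highest in none, and replicate 2 of siSFPQ was likewise the lowest of its group in 6 and the highest in none. In JUN, siCTRL replicate 3 (173.83 CPM) was almost level with replicate 1 (173.98 CPM). The same count was not made over all genes, so this order cannot be called particular to the members. The part of single libraries in the changes was tested only by leaving each library out in turn, and FOS, FOSL1, FOSL2, JUN, JUNB and ATF3 kept their calls in all 6 of those fits.

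In 3 members the annotated span overlaps another gene. Whether reads were counted by strand is not given in the sources used here, so reads of a member and of its opposite-strand neighbour may not have been told apart. FOSB lies inside the span of ERCC1, a DNA repair nuclease gene on the opposite strand, which had 3321 to 3482 reads in siCTRL and 3888 to 4163 in siSFPQ and rose (log2 fold change 0.22, SE 0.042, edgeR adjusted p = 3.5e-05). JUNB lies inside the span of HOOK2, a microtubule linker gene on the opposite strand, which had 739 to 802 reads in siCTRL and 975 to 1085 in siSFPQ and rose (log2 fold change 0.38, SE 0.066, edgeR adjusted p = 1.1e-05). FOSL2-AS1, an antisense RNA over the start of FOSL2, had 33 to 67 reads per library and a log2 fold change of -0.02 (edgeR adjusted p = 0.96). A short lncRNA on the same strand inside FOSL2 (ENSG00000270640, chromosome 2, 28396815 to 28397110) fell, from 56, 75 and 63 to 42, 37 and 27 reads (log2 fold change -0.87, edgeR adjusted p = 0.0038). FOSL2 itself had 12433 to 17082 reads per library, so both neighbours were small beside it.

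Divided by exon length, CPM can be compared between genes only approximately. The length used is that of all annotated exons of a gene, which can exceed that of the transcripts expressed. For ATF3 it was 3998 bases, against 2103 for its longest transcript. Overlap of libraries between genes reflects the spread between replicates and not this error of length. In siCTRL the highest levels were those of FOSL2 (50.6 ± 1.39 CPM per kilobase of exons, SD, n = 3), JUND (50.3 ± 4.84) and JUN (48.8 ± 1.39), whose libraries overlapped from each gene to the next. FOSL1 (13.6 ± 1.29 CPM per kilobase) and JUNB (12.4 ± 1.06) followed and overlapped with each other. ATF3 (4.27 ± 0.213), FOS (3.47 ± 0.235), BATF3 (2.32 ± 0.332) and FOSB (0.141 ± 0.0542 CPM per kilobase) came next, each without overlap with its neighbour. The FOS gene itself was thus a minor transcript of its family in these cells.

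In siSFPQ the order differed at the top and in the middle. JUN (53.3 ± 0.953 CPM per kilobase) and JUND (53.0 ± 0.629) overlapped with each other and both lay above FOSL2 (38.9 ± 0.418). JUNB (18.3 ± 0.563 CPM per kilobase) now stood above FOSL1 (16.5 ± 0.759) in every library. ATF3 (7.50 ± 0.403), FOS (4.27 ± 0.0532), BATF3 (2.88 ± 0.115) and FOSB (0.233 ± 0.0124 CPM per kilobase) kept their places. With the length of the longest transcript, an alternative chosen after seeing the data, JUNB (18.3 ± 0.563) and FOSL1 (18.2 ± 0.842) overlapped in siSFPQ and did not in siCTRL. JUN then lay above JUND in every siSFPQ library, at 59.3 ± 1.06 against 53.0 ± 0.629 CPM per kilobase, and JUN, FOSL2 and JUND still overlapped in siCTRL.

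The make-up of the FOS family moved with the fall of FOSL2. Of the family's summed CPM per kilobase, FOSL2 made up 72.9%, 76.3% and 74.8% in siCTRL and 64.3%, 65.6% and 65.1% in siSFPQ. FOSL1 made up 21.6%, 18.1% and 20.2% in siCTRL and 28.3%, 26.8% and 27.3% in siSFPQ. The FOSL2 share thus differed by -9.68 percentage points and the FOSL1 share by 7.48 points, with no overlap between the groups in either (exact two-sided permutation test over libraries, p = 0.1, the smallest that 3 against 3 libraries allow). FOS went from 5.12% ± 0.239 to 7.13% ± 0.0787 and FOSB from 0.206% ± 0.0766 to 0.390% ± 0.0162 of the family (SD, n = 3), each again with exact permutation p = 0.1. Shares of a family add up to a fixed whole, so a lower FOSL2 share by itself raises the shares of the other genes. The permutation tests of these shares are therefore not separate tests. These shares depend on the lengths used. Without division by length the FOSL2 share differed by -4.79 points and the FOSL1 share by 3.16 points.

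In the JUN family, JUNB made up 11.6%, 10.3% and 11.3% in siCTRL and 15.1%, 14.3% and 14.6% in siSFPQ, 3.59 points more (exact two-sided permutation p = 0.1). JUND went from 45.1% ± 2.07 to 42.6% ± 0.313 of the family (SD, n = 3, exact permutation p = 0.1), its groups side by side without overlap. The level of JUND itself was not lower, at 97.1 CPM in siCTRL and 102 CPM in siSFPQ (edgeR adjusted p = 0.22). Its share was smaller because the sum of the family was larger. This difference of -2.51 points was -1.39 points without siCTRL replicate 1 and -1.59 points without division by length. The share of JUN overlapped between the groups, at 43.8% ± 2.41 and 42.8% ± 0.671 (n = 3, exact permutation p = 0.5).

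Summed over the FOS family, the level was 67.8 ± 1.57 CPM per kilobase in siCTRL and 59.9 ± 1.18 in siSFPQ (SD, n = 3), without overlap. The JUN family sum moved the other way, from 117, 112 and 106 CPM per kilobase to 124, 123 and 126. The ratio of the FOS sum to the JUN sum was 0.590, 0.610 and 0.625 in siCTRL and 0.489, 0.475 and 0.478 in siSFPQ, without overlap (exact two-sided permutation p = 0.1). These are levels of RNA, and the amounts of the proteins or dimers were not measured. The sums and the ratio also depend on the lengths used, and they were not recomputed with other lengths.

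Among other bZIP proteins that pair or compete with AP-1, 20 of 21 listed genes were tested (median log2 fold change 0.08). Of these 20 genes, 8 rose, 8 fell and 4 did not pass the test. Transcriptome-wide, 22.4% of tested genes rose and 22.1% fell. For genes averaging 1 CPM or more, these shares were 30.1% and 34.5%. The small MAF genes MAFF (log2 fold change 0.89, SE 0.067, edgeR adjusted p = 4.3e-13) and MAFK (0.78, SE 0.041, adjusted p = 3.2e-17) rose, as did NFE2L2 (0.27, SE 0.041, adjusted p = 1.4e-06), which encodes the oxidative stress factor NRF2. BATF2, a relative of BATF3, rose from 10, 22 and 18 reads to 56, 35 and 74 reads and was the only gene of this list past a log2 fold change of 1.5. BATF itself had at most 2 reads per library and was not tested.

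CREB5, a relative of ATF2, fell from 94.5 ± 3.19 to 54.1 ± 1.90 CPM (log2 fold change -0.81, SE 0.043, edgeR adjusted p = 4.4e-17). ATF2 (-0.32), ATF7 (-0.38) and CREB1 (-0.38) fell too, whereas CREM, a relative of CREB1, had a log2 fold change of 0.15 (edgeR adjusted p = 0.11). The CCAAT-binding factor CEBPB (-0.78, SE 0.075, edgeR adjusted p = 1.4e-10) and the stress factor DDIT3 (-0.72, SE 0.11, adjusted p = 6.2e-07) also fell, and ATF4, which acts upstream of DDIT3 and ATF3 in the integrated stress response, had a log2 fold change of 0.06 (adjusted p = 0.17). JDP2, a repressor that binds JUN, rose (0.16, SE 0.044, edgeR adjusted p = 0.0029).

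The MAP kinase cascades and the factors through which they act on AP-1 promoters were represented by 28 genes, of which 4 rose, 15 fell and 9 did not pass the test (median log2 fold change -0.16). With library size alone as scaling, 9 of them rose. With TMM scaling, 30.1% of all genes with a mean of at least 1 CPM rose and 34.5% fell. MAP3K5, the stress kinase ASK1, rose (log2 fold change 0.56, SE 0.072, edgeR adjusted p = 6.9e-08), as did MAPK12 (0.42) and MAP2K7 (0.37), the latter an activator of the JUN amino-terminal kinases. MAP2K6 (-1.02, SE 0.0998, adjusted p = 1.8e-10), an activator of p38 kinases, MAP3K4 (-0.83) and MRTFB (-0.89), a coactivator of serum response factor, fell. MAPK13, at 1.27 CPM in siCTRL and 0.405 in siSFPQ, was the only gene past a log2 fold change of -1.5. Of the JUN amino-terminal kinases, named here for their role after their values were seen, MAPK8 (0.07, edgeR adjusted p = 0.20) and MAPK9 (-0.02, adjusted p = 0.76) did not pass the test. The scarce MAPK10 fell from 11, 25 and 21 reads to 8, 11 and 2 reads (-1.43, SE 0.54, adjusted p = 0.030).

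Of 16 genes that restrain MAP kinases, 15 were tested (median log2 fold change 0.20). Among all genes with a mean of at least 1 CPM, 30.1% rose and 34.5% fell. Of these 15 genes, 8 rose, 2 fell and 5 did not pass the test. SPRED3 (0.97, SE 0.052, edgeR adjusted p = 4.7e-17), DUSP10 (0.93, SE 0.072, adjusted p = 6.5e-13) and DUSP1 (0.90, SE 0.062, adjusted p = 2.8e-14) rose most; DUSP1 and DUSP10 encode phosphatases of the stress kinases. DUSP1 measured 30.5, 33.2 and 28.0 CPM in siCTRL and 61.1, 50.6 and 59.6 CPM in siSFPQ. SPRED1 fell (-0.20, SE 0.046, adjusted p = 0.00064). DUSP6, a phosphatase specific for ERK, fell from 27, 29 and 37 reads to 3, 2 and 1, at least 10.0-fold lower against a floor of 3 counts per library; it was named after its values were seen.

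Other immediate early genes, which respond to the same signals as FOS, JUNB and ATF3, numbered 34, of which 19 rose, 8 fell and 7 did not pass the test (median log2 fold change 0.29). For comparison, 30.1% of all genes with a mean of at least 1 CPM rose and 34.5% fell. NR4A3, an orphan nuclear receptor, rose from 1.59 ± 0.264 to 4.85 ± 0.160 CPM (log2 fold change 1.61, SE 0.15, edgeR adjusted p = 5.2e-11). ARC (1.12, SE 0.056, adjusted p = 6.1e-18) and TRIB1 (1.08, SE 0.051, adjusted p = 1.3e-18) rose too. EGR1, a serum response gene like FOS, fell from 95.3, 79.5 and 76.7 CPM to 59.6, 56.5 and 55.8 CPM (log2 fold change -0.55, SE 0.055, adjusted p = 3.1e-10). GADD45B (-0.66, SE 0.056, edgeR adjusted p = 7.8e-12) and CCN1 (-0.67, SE 0.037, adjusted p = 8.3e-17) also fell.

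Genes described as AP-1 targets numbered 25 (median log2 fold change 0.17). Among all genes with a mean of at least 1 CPM, 30.1% rose and 34.5% fell. Of the 25 targets, 13 rose, 8 fell and 4 did not pass the test. Those past a log2 fold change of 1.5 were the chemokine gene CXCL8 (2.15, SE 0.29, edgeR adjusted p = 1.4e-07), the epidermal gene IVL (1.92, SE 0.29, adjusted p = 1.5e-06) and the matrix metalloproteinase genes MMP10 (1.86, SE 0.28, adjusted p = 9.6e-07) and MMP13 (1.51, SE 0.065, adjusted p = 1.0e-19). Of these only MMP13, a collagenase of bone and cartilage, was above 3 CPM, at 16.6, 14.6 and 18.6 CPM in siCTRL and 46.2, 49.5 and 46.2 CPM in siSFPQ. CXCL8 had 19, 10 and 35 reads in siCTRL and 103, 71 and 111 in siSFPQ. In the other direction, PTGS2, which encodes cyclooxygenase COX-2, fell (-1.42, SE 0.15, adjusted p = 1.1e-09), as did SPP1, the bone matrix protein osteopontin (-1.33, SE 0.080, adjusted p = 1.1e-15), and GJA1, connexin 43 (-0.68, SE 0.040, adjusted p = 5.5e-16).

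The ubiquitin ligase genes that mark JUN for degradation were 4, of which 0 rose, 2 fell and 2 did not pass the test by edgeR. The shares over all genes with a mean of at least 1 CPM were 30.1% rising and 34.5% falling. COP1 fell from 47.1 ± 3.33 to 30.9 ± 2.02 CPM (log2 fold change -0.61, SE 0.057, adjusted p = 5.9e-11) and FBXW7 from 37.3 ± 2.68 to 29.6 ± 0.121 CPM (-0.33, SE 0.056, adjusted p = 6.8e-06). ITCH had a log2 fold change of 0.01 (adjusted p = 0.90) and DET1, at under 1 CPM, of 0.21 (adjusted p = 0.66).

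Across the 6 libraries, the log2 CPM of FOS was most like that of NR2F6 (Pearson r = 0.998), NRBP1 (0.998) and ATOH8 (0.997), and that of JUN most like that of CBX8 (0.999), GPRASP2 (0.995) and PRSS51 (0.994), among 15640 genes with a mean of at least 1 CPM. As many as 588 genes had r over 0.95 with FOS and 338 with JUN. With 2 groups of 3 libraries these values mostly follow the difference between siCTRL and siSFPQ, and they are given as a description.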

How the data were processed

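RNA-seq libraries of 3 siCTRL and 3 siSFPQ replicates of U-2 OS cells were analysed from the table of raw counts per Ensembl gene that the authors deposited, without normalization. All 6 columns were matched to samples by name and 0 were left unused. The study's methods name a stranded mRNA kit, whereas the deposited label names a TruSeq RNA kit. Per the submitters' processing notes and the study's methods, reads were checked with FastQC and aligned with STAR 2.7.9a to GRCh38. Trimming, and whether counting used strand, are not given in the sources used here.

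Genes with at least 10 counts in total (29022 of 60664) entered edgeR's quasi-likelihood test without covariates (edgeR 4.0.16, R 4.3.3), after TMM scaling and with Benjamini-Hochberg adjustment. Rose and fell mean an adjusted p under 0.05. CPM are counts per 1000000 of the TMM-scaled library size. Standard errors and 95% intervals were derived from each gene's F statistic. Exon lengths and spans come from GENCODE release 44, matched by identifier for 99.67% of genes. Family shares were compared with exact permutation tests in scipy 1.17.1. The similarity of profiles used log2 of CPM plus 0.5.

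The members and the gene lists were chosen with earlier results of these data known. Named genes are the members, SFPQ, the 3 highest and 3 lowest log2 fold changes per list among genes that passed the test with a mean of at least 1 CPM, any gene of the bZIP and ubiquitin ligase lists, genes overlapping a member, and for FOS and JUN the 3 most similar profiles. A list gene outside this rule was named after its value was seen, as were the low markers and the genes past a log2 fold change of 1.5.

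Alternatives tried were edgeR's filterByExpr or no count filter, scaling by RLE or by library size alone, DESeq2 1.42.0, a replicate block, a table of protein-coding genes, other lengths, and leaving out each library. The order of levels with the longest transcript and the shares called among genes of at least 1 CPM were added after seeing the data. Library totals were 43469321 to 47119203, and the detection floor covers counting error only. Replicates of a group differed by more than sampling noise (chi-square divided by its degrees of freedom, 3.77 to 5.49, against 82.0 to 101.5 between groups). The fits were tested on simulated counts.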

Additional observations from a re-analysis of the deposited data

How the results depend on the processing

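In 381 recomputed values of 32 results no direction reversed, and 366 kept their side of the threshold or stayed within the spread or 1.5 times the count. FOS, FOSL1, FOSL2, JUN, JUNB and ATF3 kept their calls in all 13 settings each. With DESeq2, the FOSB log2 fold change was 0.73 (adjusted p = 0.066), so that 6 members rose rather than 7. The count was 5 without siCTRL replicate 3 or without siSFPQ replicate 1, and 6 without siSFPQ replicate 2 or 3. It was 8 with library size alone as scaling and without siCTRL replicate 1. With each library left out in turn, FOSB ranged from 0.44 to 0.95 and lost its call without siCTRL replicate 3 and without each siSFPQ library, BATF3 ranged from 0.22 to 0.43 and lost it without siCTRL replicate 3 or siSFPQ replicate 1, and JUND ranged from 0.0087 to 0.15 and passed the test only without siCTRL replicate 1; these fits have fewer samples. With library size alone as scaling, which moved the median of all genes from 0.02 to 0.08, JUND passed at 0.14 and 9 genes of the MAP kinase list rose rather than 4. Without division by length, the shares differed by 1.43 points for FOS, 3.16 for FOSL1, -4.79 for FOSL2 and 2.55 for JUNB, and with the longest transcript FOS differed by 2.66 points; shares carry each gene's length by construction.

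With the replicate number as a block, 7 members rose and 1 fell, as without it, and over all genes 6530 rose and 6424 fell. Same-numbered libraries showed little shared deviation (r = -0.025, 0.070 and 0.036), beside -0.072 to 0.035 for libraries of different numbers. Such values cannot tell whether same-numbered samples were handled together. Depth limited FOSB most, at 20 to 61 reads per library. Replicates of 3 per group cannot give an exact p under 0.1 for the shares.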
